A study of Mus musculus with 16 samples.

Results

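Emp1, Emp2, Emp3 and Pmp22 encode a small family of membrane proteins that cross the membrane repeatedly, the epithelial membrane proteins and peripheral myelin protein 22. Here they were followed in microglia, macrophages that live in the brain, taken from the hippocampus of young and aged mice. The members are the 4 rows of the deposited normalized counts table with these symbols, of 24015 rows in all. The family was chosen by measured values, the Emp2 normalized counts of these same 12 samples at both ages. The age values of its members are therefore a description, and nothing is rested on them.

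The family shares a fold with the claudins of tight junctions. PMP22 is best known as a component of compact myelin made by Schwann cells, where a changed dose of the human gene causes inherited neuropathies, and it is also made by many cells outside nerve. EMP2 binds integrins and focal adhesion kinase and shapes caveolin-bearing membrane domains, mainly as studied in epithelia, while EMP3 is found in many blood-derived cells. EMP and PMP22 proteins have also been found bound to the P2X7 receptor, an ATP-gated channel that microglia carry.

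The study had 2 groups, mice of 3 months (young) and of 20 months (aged), with 6 samples each and no treatment or genetic change named in the labels. Live CD11b+ CD45lo cells, a gate for microglia, were sorted from dounced, myelin-depleted hippocampus, and their RNA was amplified to cDNA with the SmartSeq v4 kit before sequencing. The strain label is C57BL/6 for all samples but aged 5 (C57BL/7) and aged 6 (C57BL/8 and C57BL/9 for its 2 libraries), and whether these are entry errors was not settled. Nothing in the labels tells single animals from pooled ones, so errors and p-values describe how far apart these samples lie. Young 1 was the shallowest sample with 1 library, at 11.4 M reads, and the remaining 7 of this kind held 23.4 to 47.3 M. Young 2, young 4, aged 3 and aged 6 had 2 technical replicate libraries merged into 1 column, whose reads were not recovered. Defining microglia genes summed to 63513 to 75321 CPM (each column scaled to the usual common total) in the 12 samples.

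The 4 genes lie on different chromosomes (mm10, GENCODE M21). Emp2 is on chromosome 16 at 10281749 to 10313968 on the minus strand, Emp3 on chromosome 7 at 45918023 to 45921404 on the minus strand, Pmp22 on chromosome 11 at 63128982 to 63159547 on the plus strand, and Emp1 on chromosome 6 at 135362545 to 135383173 on the plus strand. No other annotated gene overlaps any of them, which matters because these libraries do not mark the strand. Their coding sequences are of similar size, 519 bases in Emp2, 492 in Emp3 and 483 in both Emp1 and Pmp22, in transcripts of 3440, 784, 2911 and 1822 bases. Aligned pairwise, the coding sequences were identical at 59.5% of bases for Emp2 and Emp3, 61.9% for Emp2 and Pmp22, and 68.1% for Emp1 and Emp2, the closest pair. Because Pmp22 is far more abundant than the others, the longest exact stretch it shares with Emp2 is shown; capitals mark the 15 bases that the Emp3 coding sequence also holds.
Emp2 and Pmp22 shared run: catCCTGGCCTGGGTGGCcttt
This run of 22 bases lies in exon 5 of both genes, at chr16:10284482-10284503 (minus strand) in Emp2 and chr11:63158340-63158361 (plus strand) in Pmp22, and no longer exact run was found between any annotated transcripts of these 2 genes. It is short against the 150-base paired reads as sequenced, before the trimming named in the series' design text. Whether any Pmp22 reads were counted for Emp2 was not tested.

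The sequences before the start sites of Emp2 and Emp3 are printed since Emp2 is the member that brought the family into view and Emp3 the member nearest to it in level. Each holds the 250 bases upstream of the RefSeq start (GRCm38.p6, minus strand), at chr16:10313969-10314218 for Emp2 and chr7:45921427-45921676 for Emp3, the first of its 2 annotated starts. Capitals mark a GC box (GGGCGG) in Emp2 and a TATA motif (TATAAA) in Emp3, found on either strand.
Emp2: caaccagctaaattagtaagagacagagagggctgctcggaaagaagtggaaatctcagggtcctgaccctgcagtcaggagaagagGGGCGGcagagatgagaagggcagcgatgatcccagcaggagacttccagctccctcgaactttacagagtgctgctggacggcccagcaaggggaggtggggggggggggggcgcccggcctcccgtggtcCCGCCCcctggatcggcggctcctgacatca
Emp3: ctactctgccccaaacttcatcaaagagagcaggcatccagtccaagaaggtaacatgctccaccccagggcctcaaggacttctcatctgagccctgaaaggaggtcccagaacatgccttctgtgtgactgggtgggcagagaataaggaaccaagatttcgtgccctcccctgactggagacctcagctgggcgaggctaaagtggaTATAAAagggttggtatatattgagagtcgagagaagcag
The Emp2 window held 11 CpG pairs and 2 GC boxes, and the Emp3 window 3 CpG pairs and 1 TATA motif. Over all 32817 promoter windows of this length the median was 6 CpG pairs, 32.7% held a GC box and 12.4% a TATA motif. Neither window held the letters TGANTCA of AP-1 sites or GAGGAAG of PU.1 and other ETS factors, which 6.75% and 10.6% of all windows held. These matches describe letters only.

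Emp2 stood at 128 ± 25.9 normalized counts in young and 562 ± 134 in aged microglia (SD, n = 6 each). The 6 young samples held 120, 156, 134, 97.9, 102 and 158 normalized counts in the order of their numbers. The 6 aged samples held 638, 579, 765, 376, 525 and 485. All aged samples lay above all young ones, and the lowest aged sample, aged 4, was 2.38-fold above the highest young sample, young 6. The difference was 2.11 ± 0.17 on the log2 scale (SE), a 4.33-fold rise, the 23rd largest among the 11579 genes tested. This row of the limma fit (adjusted p = 8.1e-07) is what brought the family into view.

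Of the 3 members tested 1, Emp2, was called at an adjusted p under 0.05 (limma), in the aged direction. Over all genes tested 1.73% were called in either direction, 1.27% higher and 0.458% lower. Emp2 was also the member whose ages did not overlap, which held for 1.87% of genes tested in either direction and 1.16% in this one. Since the family was chosen by the Emp2 values, its call and its separation were fixed in advance. They are not weighed against these shares. The rise was as large when single samples were left out, from 2.02 without aged 3 to 2.22 without aged 4, and stood at 2.17 without aged 5 and 6, the samples with other strain labels. On whole reads recovered from the 8 samples with 1 library it was 2.04 by edgeR and 2.05 by DESeq2.

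**Figure D1:**
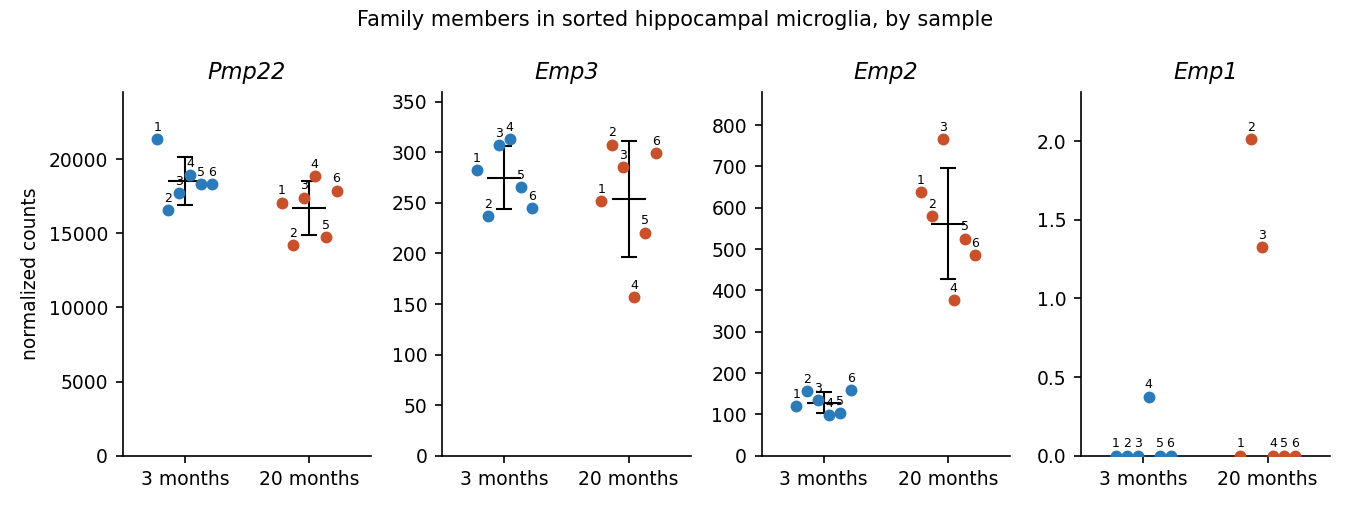
Normalized counts of the 4 members in each sample at 3 months (blue) and 20 months (orange-red), on linear axes from 0 that differ between panels; points are samples with their number, and bars give mean ± SD (n = 6; none for Emp1, which is mostly at 0). The aged Emp2 samples, from 376 to 765, all sit above the young ones, from 97.9 to 158, while the ages overlap for Emp3 and Pmp22.

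Counting error was below the spread of Emp2 at both ages, and further below it in aged than in young samples. The samples with 1 library held 49 to 205 Emp2 reads in young and 343 to 738 in aged mice. Reads of this number alone would give a coefficient of variation of 9.76% and 4.46%, against 20.2% and 23.8% observed over the 6 samples of each age. Young 1, the shallowest sample, had 49 reads, with an exact Poisson interval of 36.3 to 64.8 that covers counting error only. Relative to the mean, the aged samples thus spread about as widely around their higher level as the young ones around theirs.

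Emp3 was at 275 ± 31.4 normalized counts at 3 months and 254 ± 57.4 at 20 months. The young samples held 282, 237, 307, 313, 266 and 245, and the aged samples 252, 308, 285, 157, 221 and 299. The ages overlapped, and the difference was -0.14 ± 0.16 on the log2 scale (SE), which was within the spread between samples (limma adjusted p = 0.854). Aged 4 stood below the other 11 samples, and without it the difference was -0.014. Aged 4 was also the lowest aged sample for Emp2, but the highest aged sample for Pmp22.

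Pmp22 was the abundant member, with 18525 ± 1588 normalized counts in young and 16690 ± 1838 in aged samples. The young samples held 21332, 16565, 17724, 18921, 18296 and 18315, and the aged samples 17060, 14198, 17415, 18863, 14721 and 17884. The levels overlapped, with young 1 highest and aged 2 and aged 5 lowest. The difference was -0.15 ± 0.080 on the log2 scale (SE) and did not pass (limma adjusted p = 0.529). Across 25 alternative fits it ranged from -0.23 to -0.11, always below 0 and never past the threshold.

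Emp1 was at the floor of detection. In the 8 samples with 1 library there were 2 Emp1 reads among 231.7 M, both in aged 2. Young 4 and aged 3, each the mean of 2 libraries, were listed at 0.376 and 1.33, which are 1 and 3 times the smallest value of their columns, and the other 9 samples were at 0. Emp1 did not reach the filter of 10 normalized counts in 6 samples, so it was not tested and no fold is given. In the shallowest sample, young 1, 3 reads correspond to 7.37 normalized counts, the level a count of 0 allows there.

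Per kilobase of the longest coding transcript, the order was Pmp22, then Emp3, then Emp2, then Emp1 in 12 of 12 samples. Pmp22 stood at 10168 ± 872 normalized counts per kb in young and 9160 ± 1009 in aged samples, Emp3 at 351 ± 40.0 and 323 ± 73.2, and Emp2 at 37.2 ± 7.54 and 163 ± 38.8. The order of levels was therefore the same at both ages, although Emp2 exceeded Emp3 in normalized counts at 20 months, since its transcript is longer. Within a sample the level of Emp2 was 0.0714 to 0.150 of that of Emp3 in young mice and 0.369 to 0.612 in aged mice, with no overlap. In aged samples the 2 genes came near each other: Emp2 in aged 3, at 223 per kb, lay above Emp3 in aged 4, at 200.2. Pmp22 made up 95.8 to 96.7% of the family's summed level per kb in young and 93.3 to 97.1% in aged samples.

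**Figure D2:**
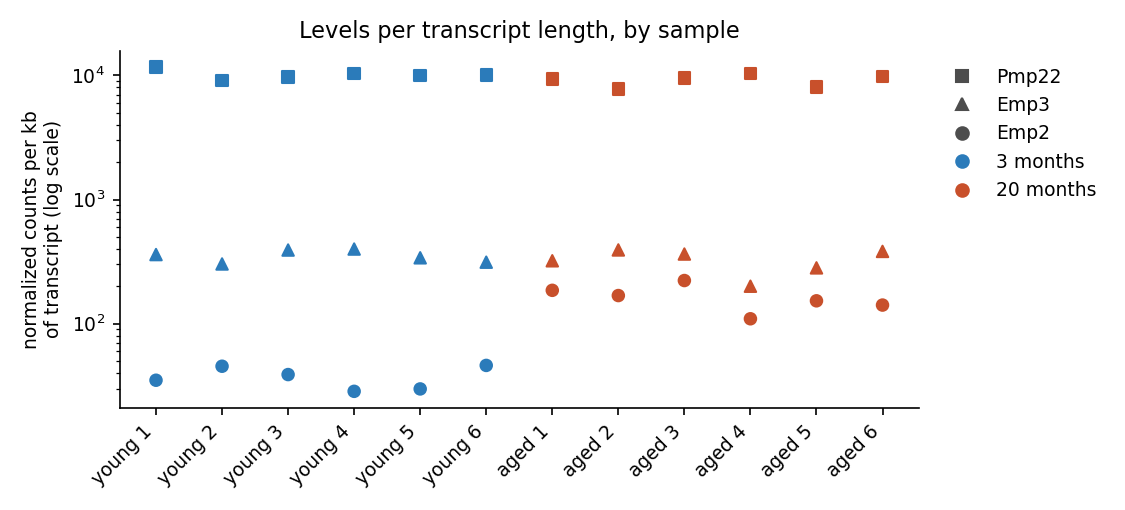
Normalized counts per kb of transcript (log axis) of Pmp22 (squares), Emp3 (triangles) and Emp2 (circles) in each of the 12 samples, coloured by age. Emp2 moves from 37.2 to 163 per kb on average and stays below Emp3 in every sample, and Pmp22 lies far above both.

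Among 10641 tested genes with a coding transcript length, Pmp22 ranked 94th per kb in young and 106th in aged microglia. Emp3 lay above 59.8% of these genes in young and 57.4% in aged samples. Emp2 lay above 17.6% in young and 40.6% in aged samples. Emp2 was thus a low transcript of young microglia that reached a middling level at 20 months, while Pmp22 was among the most abundant at both ages.

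Pmp2 and Prx, 2 other genes of peripheral myelin, were at 0 or low beside Pmp22. Pmp2 was at 0 in all samples, and Prx, which encodes periaxin, reached at most 10.6 normalized counts. The list of 7 Schwann cell and peripheral myelin genes summed to 2.00 to 6.10 CPM, most of it from Egr2 (113 ± 31.8 and 96.0 ± 35.0 normalized counts, young and aged), an early growth response gene that myeloid cells also make, against 541 to 764 CPM for Pmp22. Mural cells and fibroblasts also make Pmp22. Rgs5 and Kcnj8 of mural cells and Col1a1 of fibroblasts were at 0 in all samples, and the 10 mural and 8 fibroblast markers summed to at most 5.98 and 0.745 CPM. Other mural markers were present: Pdgfrb was at 31.0 ± 21.4 and 19.1 ± 12.5 normalized counts (young and aged), Tagln at 20.9 ± 10.4 and 20.0 ± 15.3, Abcc9 at 9.26 ± 5.94 and 29.4 ± 19.0, and Cspg4, with means of 1.1 and 29.5, reached at most 90.5. Of these the 3 that were tested did not pass (limma), beside 1.73% of all genes called. The part of mural cells in the levels of the family was not tested. Mbp and Cnp of oligodendrocytes were present at 1751 ± 244 and 3528 ± 129 normalized counts in young samples, while Mog reached at most 3.48 and Cldn11 at most 2.61.

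Genes whose products are described as binding or handling EMP and PMP22 proteins gave no call. Of the 16 on this list 14 were tested, and 0 passed in either direction (limma), beside 1.73% of all genes tested. At an unadjusted p under 0.05, 5 of the 14 were higher and 1 was lower, beside 5.84% and 4.98% of all genes tested. On the 8 samples with 1 library edgeR called 0 of the list and 0.786% of all genes, and DESeq2 called 1 of the list and 1.82% of all genes. The median log2 difference of the 14 was 0.13, beside 0.0016 over all genes tested. Of the EMP2-binding integrin chains, Itgav stood at 9276 ± 1532 at 3 months and 8297 ± 1463 at 20 months and Itgb1 at 15559 ± 1470 and 14310 ± 745. Itga6, whose product forms a complex with PMP22 and the beta4 chain, was at 15681 ± 1885 and 12587 ± 2568 (limma adjusted p = 0.228) and passed in 1 of 25 alternatives, the fit without aged 5 (limma adjusted p = 0.026).

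No other partner named passed in the limma fit. Ptk2, the focal adhesion kinase bound by EMP2, had 129 ± 34.3 normalized counts at 3 months and 202 ± 66.3 at 20 months (limma adjusted p = 0.304) and was the 1 call of DESeq2 on the 8 samples with 1 library (adjusted p = 0.032). Cav1 and Cav2, caveolins of membrane domains, were at 38.6 ± 21.9 and 298 ± 73.7 in young and at 64.5 ± 19.8 and 415 ± 54.5 in aged samples (limma adjusted p = 0.316 and 0.146). Ptk2, Cav1 and Cav2 were named after their values were seen. P2rx7, the ATP-gated channel, stood at 12202 ± 1887 and 11699 ± 1306 (limma adjusted p = 0.919). Canx, the chaperone calnexin that holds newly made PMP22, was at 24224 ± 3549 and 26454 ± 2010 (limma adjusted p = 0.671).

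Few genes of the wider claudin superfamily reached a level that could be tested. Of 42 genes listed 40 were in the table, 12 were at 0 in all samples and 5 passed the filter on low values. Of these 5, 0 were called by limma, edgeR or DESeq2, beside 1.73%, 0.786% and 1.82% of all genes. At an unadjusted p under 0.05 in the limma fit 1 of the 5 was higher, beside 5.84% of all genes. Cldn25 was the most abundant, at 3150 ± 421 normalized counts at 3 months and 3234 ± 288 at 20 months (limma adjusted p = 0.930). Cldn12 was at 178 ± 29.9 and 227 ± 42.4 (limma adjusted p = 0.426) and Gsg1, a testis-rich member that lies beside Emp1, at 168 ± 40.2 and 176 ± 29.9 (limma adjusted p = 0.933).

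**Figure D3:**
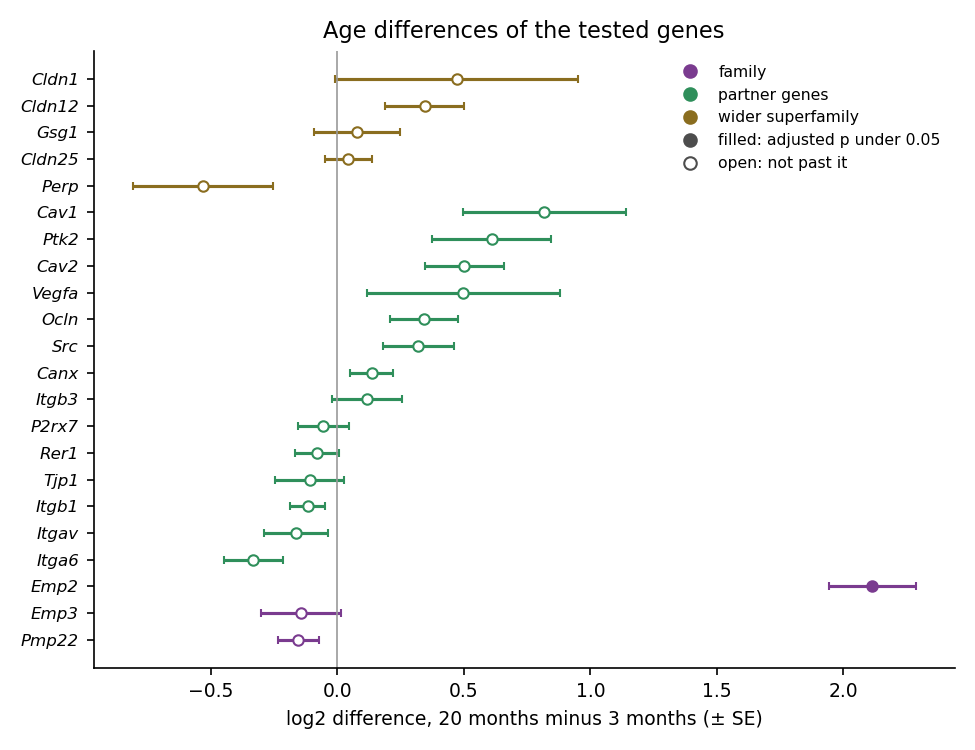
Log2 differences between 20 and 3 months (± SE, limma, n = 6 per age) of the 3 tested family members, 14 partner genes and 5 genes of the wider superfamily; filled points passed an adjusted p under 0.05. Emp2, at 2.11, is the single filled point, and the partner genes lie between -0.33 and 0.82.

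No flanking gene of Emp2 that could be tested passed. Nubp1, 97980 bases away and the one tested gene among the 2 nearest coding genes on either side, was at 674 ± 108 at 3 months and 651 ± 97.6 at 20 months (limma adjusted p = 0.941). Tekt5, Atf7ip2 and Rpl39l did not reach the filter, with means of at most 7.80 normalized counts at either age. Beside Emp3, Tmem143 was at 192 ± 32.4 and 240 ± 24.3 and Ccdc114 at 21.3 ± 14.7 and 16.2 ± 16.7 (limma adjusted p = 0.348 and 0.823). Beside Pmp22, Cox10 was at 519 ± 34.5 and 497 ± 47.4, and Hs3st3b1, a heparan sulfate sulfotransferase gene 726245 bases away, rose 1.56-fold from 361 ± 71.0 to 568 ± 132 (limma adjusted p = 0.046), a call lost in 16 of 25 alternatives, among them the fits without any 1 sample but young 3, aged 4 or aged 6 (adjusted p 0.019 to 0.150 over all of them).

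The genes most like Emp2 over the 12 samples were Dlg5, Pcbp3, Tnfsf13b, Zkscan2 and Kcnj12, out of 9818 genes with a mean of at least 50 normalized counts, predicted gene models left out. Their Pearson correlations with Emp2 were 0.970, 0.969, 0.964, 0.963 and 0.962 on the log2 scale. All 5 were themselves higher at 20 months, from 2.10-fold for Tnfsf13b, which encodes the B cell survival factor BAFF, to 16.2-fold for the scaffold gene Dlg5, so the likeness over 12 points follows the age groups. Taken as deviations from the mean of each age, the genes most like Emp2 were Slc37a3, Rbm12b2 and Smurf2, with correlations of 0.937, 0.917 and 0.889, and none of the earlier 5 was among them. For Emp3 the nearest by deviations were Cwc27, Cnn2 and Gmnn (0.939, 0.938 and 0.904), of which Cwc27 and Cnn2 came to 0.825 and 0.819 without aged 4. For Pmp22 they included Zfp277 and Dcaf13 (0.927 and 0.90). These are descriptions of 12 points that share libraries and scaling, chosen as the highest of many.

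Markers of other cells were summed per sample and set beside Emp2, which stood at 4.73 ± 0.94 CPM in young and 21.0 ± 4.91 CPM in aged samples, a difference of 16.3 CPM. In bulk samples a change in the number of cells of a type and a change in RNA per cell cannot be told apart. Of 15 lists 3 differed by the exact two-sided permutation test (adjusted p = 0.032 for each), and the other 12 had adjusted p-values of at least 0.211. Without aged 1, 2, 4, 5 or 6 in turn 2 lists passed, and without aged 5 and 6 together 0 did. Microglia markers fell from 72005 ± 2122 to 66191 ± 2295 CPM, 12 of 12 listed genes being in the table. By limma 1 of the 12, Fcrls, was called lower, beside 0.458% of all genes tested. At an unadjusted p under 0.05, 4 were lower and 0 higher, beside 4.98% and 5.84%. The log2 difference was above 0 for 3 of the 12, beside 5850 of 11579 over all genes. The list of B cell genes fell from 41.2 ± 3.22 to 32.5 ± 2.71 CPM, nearly all of it Cd79b, while Ms4a1 was at most 2.59 normalized counts in any sample. Cd79b, the 1 gene of this list tested, was itself called lower (limma adjusted p = 0.038), beside 0.458% of all genes. Monocyte markers, 5 of 5 listed in the table and none at 0 throughout, rose from 3.20 ± 0.86 to 5.10 ± 0.67 CPM, with ranges of 2.11 to 4.26 and 4.01 to 5.86. The rise was 1.90 CPM. Of the 6 aged samples 5 lay above all young ones, at 4.66 to 5.86 CPM, and aged 3 lay within the young range at 4.01 CPM. Most of the sum was Ccr2, at 65.6 ± 19.6 normalized counts in young and 99.4 ± 26.9 in aged samples (limma adjusted p = 0.390). By limma 0 of the 3 monocyte genes tested were called, beside 1.73% of all genes. At an unadjusted p under 0.05, 2 of the 3 were higher, beside 5.84% of all genes. The aged sample highest for the monocyte sum, aged 4, was lowest for Emp2, and aged 3, lowest for the sum, was highest for Emp2. These samples were picked out after the values were seen. The part of monocytes in the rise of Emp2 was not tested.

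Choroid plexus and ependymal markers, 7 of 7 in the table and none at 0 throughout, were at 26.1 ± 16.9 CPM in young and 67.0 ± 44.4 CPM in aged samples, a difference that did not pass (exact permutation, adjusted p = 0.211). Most of the sum was Ttr (330 ± 240 and 723 ± 402 normalized counts, young and aged) and Enpp2 (335 ± 186 and 987 ± 856). Foxj1 of ependyma was near the floor, at 1.38 ± 1.61 and 0.392 ± 0.615. By limma 0 of the 4 tested were called, beside 1.73% of all genes. At an unadjusted p under 0.05, 2 of the 4 were higher, beside 5.84%. The summed markers ranged from 9.93 to 48.9 CPM in young and 16.1 to 131 CPM in aged samples. Of the aged samples 4 lay above all young ones, aged 3 at 61.3, aged 6 at 86.1, aged 2 at 89.0 and aged 5 at 131 CPM. Aged 1, at 16.1 CPM, and aged 4, at 18.9 CPM, lay within the young range and held 638 and 376 normalized counts of Emp2. The part of these cells in the rise of Emp2 was not tested.

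Markers of astrocytes and of macrophages at the brain's borders were looked at singly as well. Aldh1l1, an astrocyte enzyme gene, rose 2.82-fold from 19.4 ± 8.37 to 57.2 ± 26.5 normalized counts (limma adjusted p = 0.041). Its ages did not overlap, which held for 1.16% of genes tested in this direction. It gave the 1 call among 4 tested astrocyte markers, beside 1.27% of all genes called higher. This call was lost in 15 of 24 alternatives, among them the fits without young 2, 3, 4 or 5 or aged 1, 3, 4 or 5 (adjusted p 0.019 to 0.179 over all of them). The astrocyte list summed to 229 ± 19.9 and 245 ± 28.9 CPM. Nearly all of this sum was Slc1a3, at 6091 ± 620 and 6351 ± 723 normalized counts (limma adjusted p = 0.894). Aqp4, Slc1a2 and Gja1 did not reach the filter, with means of at most 15.9 normalized counts at either age. Of these, Aqp4 was lower at 20 months and Slc1a2 and Gja1 were higher. Of the 8 border macrophage markers 6 were tested and 0 were called, beside 1.73% of all genes. At an unadjusted p under 0.05, 3 of the 6 were higher, beside 5.84% of all genes. Among these markers F13a1 stood at 33.2 ± 28.4 at 3 months and 97.7 ± 56.0 at 20 months, with overlap between the ages. Cd163 was at 12.6 ± 14.6 and 43.2 ± 30.04, also with overlap. Mrc1, the most abundant of the 8, was at 226 ± 46.8 and 207 ± 98.2 (limma adjusted p = 0.856). The log2 difference was above 0 for 5 of the 6 tested, beside 5850 of 11579 over all genes. Pf4 and Cbr2 were among the 5 (limma adjusted p = 0.879 and 0.844). The border macrophage list summed to 11.5 ± 2.38 and 16.3 ± 8.34 CPM. The part of astrocytes and border macrophages in the rise of Emp2 was not tested.

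Endothelial markers summed to 68.5 ± 7.48 CPM in young and 66.6 ± 11.4 CPM in aged samples (exact permutation, adjusted p = 0.745). Of the 12 genes Tek and Emcn were at 0 in all samples and Cldn5 was at most 1.30 normalized counts, while Pecam1, at 1512 ± 173 and 1394 ± 307, made up most of the sum. The aged samples fell in the same order for this sum and for Emp2. That order was aged 3, 1, 2, 5, 6 and 4, from 82.9 to 51.3 CPM. The young samples did not share an order. Young 2 and young 3 were at the ends of the young range (76.1 and 56.8 CPM) and held 156 and 134 normalized counts of Emp2. Young 4, at 74.6 CPM, was lowest for Emp2 at 97.9, and young 6, at 66.2 CPM, was highest of the young at 158. The match in aged samples was picked out of 15 lists after the values were seen. Its part in the levels of Emp2 was not tested.

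**Figure D4:**
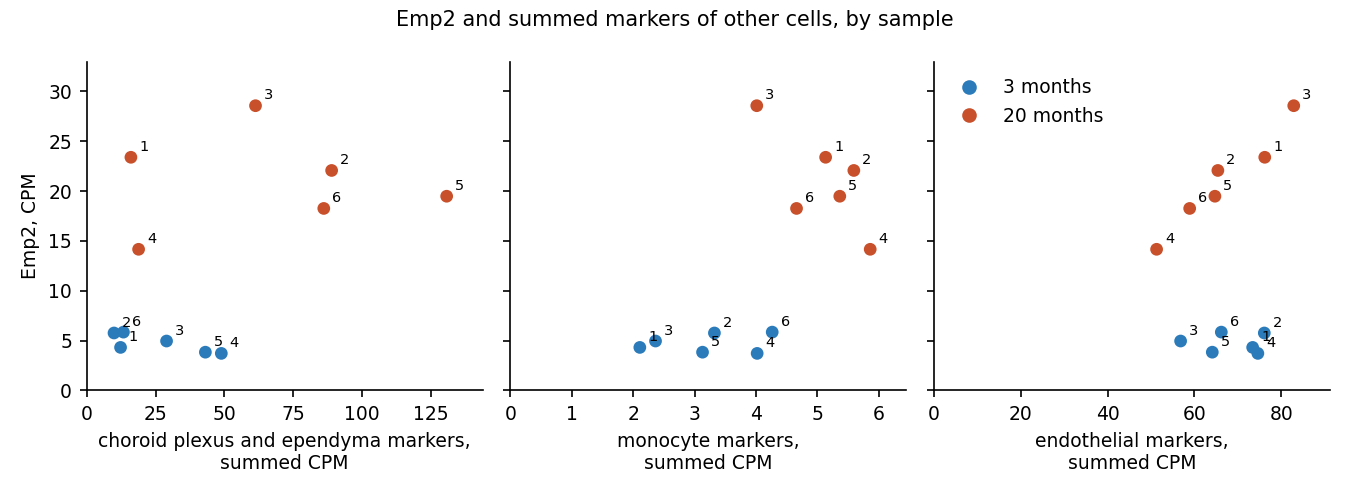
Emp2 (CPM, vertical axis) against the summed CPM of choroid plexus and ependymal, monocyte and endothelial markers in each sample, with sample numbers; blue is 3 months and orange-red 20 months. For choroid plexus markers aged 1 and aged 4 lie in the young range and the other 4 aged samples above it, for monocyte markers 5 of 6 aged samples lie above the young range, and for endothelial markers the ages overlap.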

How the data were processed

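The authors deposited 1 table of normalized counts per gene symbol, a signal that is never negative, for 12 samples (16 libraries). Per the submitters' processing notes, bcl2fastq, STAR, SAMtools and DESeq2 were used on mm10, and the series' design text adds fastx_trimmer; the annotation they counted on is not given in the sources used here. Values of the 8 columns with 1 library are multiples of a fixed step (100% whole within 0.1), which gave back their reads; depth of the other 4 was not recovered. Of the symbols, 27 had become dates.

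Genes with at least 10 normalized counts in 6 samples were tested with limma 3.58.1 (R 4.3.3, mean-variance trend) on log2(normalized count + 1), two-sided, with Benjamini-Hochberg adjustment at 0.05 over 11579 genes. Folds are on this scale, which understates changes of low genes. Recovered reads were also tested with edgeR 4.0.16 and DESeq2 1.42.0. The code was tested on simulated data. Summed markers were compared by exact permutation. Lengths and positions are from GENCODE M21, promoters from RefSeq. Members, lists and tests were chosen with earlier results of these data known. Genes named by rule were partners called and the 5 most abundant, superfamily genes called and the 3 most abundant, the 2 nearest coding genes on each side, and the genes nearest by Pearson correlation. Other genes, among them single markers, were named after their values were seen. Some results are not reported here.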

Additional observations from a re-analysis of the deposited data

Results flagged for a closer look

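In 4 of 38 groups of 6 samples, 1 sample stood far from the others of its age. Chance gives about 1 in 20 only for values with a normal spread, which values near 0 need not have. The 4 of 38 are therefore not weighed against that rate. Emp1 in young 4 was listed at 0.376 normalized counts with the other 5 young samples at 0, which is a single smallest step of that column. Summed fibroblast markers were 0.505 CPM in young 4, with the next young sample at 0.217. Summed T and NK cell markers were 0.440 CPM in young 1, with the next at 0.169. Summed neutrophil markers were 10.2 CPM in aged 4, with the next aged sample at 1.44; aged 4 is also the lowest aged sample for Emp2 and Emp3, and the part of these markers in those levels was not tested.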

How the results depend on the processing

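Emp2 kept its direction and its call in 25 of 25 alternatives, from 2.02 to 2.22 on the log2 scale (adjusted p at most 2.3e-04). Emp3 and Pmp22 kept their direction and stayed short of the threshold in all 25. Emp1 could not be tested under the filter, and no alternative is given for it. With the sample number as a replicate block, Emp2 stood at 2.11 (limma adjusted p = 2.0e-05), 145 genes were called in place of 200 and no call in the family changed; same-numbered samples deviated together by correlations of only -0.121 to 0.107, so the numbers were not taken to pair them. On the 8 samples with 1 library limma called 78 genes, edgeR 91 and DESeq2 231; the cause was not tested. The partner list had 1 call without aged 5 (0 to 1 leaving out single samples) and 1 by DESeq2. Of the marker lists 0 differed without aged 5 and 6, where fewer samples enter the exact test, and 2 or 3 leaving out single samples; these alternatives and those of the correlations were added after the data were seen.

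Ccdc114, Cav1 and Aldh1l1 had no value in 3, 1 and 1 alternatives, where they did not reach the filter. Genes that did not pass and lay near 0 changed sign in places. P2rx7 was at 0.0079 without young 1, 0.012 without aged 6 and 0.0046 without aged 5 and 6. Cldn25 was at -0.019 without young 4, and -0.044, -0.042 and -0.042 on the samples with 1 library by limma, edgeR and DESeq2 (leaving out single samples, -0.019 to 0.093). Gsg1 was at -0.0022 without young 2, and -0.082, -0.11 and -0.11 on those samples (leaving out single samples, -0.0022 to 0.183). Nubp1 was at 0.0070 without young 4 and 0.0100 without aged 3, and 0.091, 0.084 and 0.082 on those samples. The cause was not tested.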
